A study of Danio rerio with 12 samples.

Results

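The fish-specific TRIM genes, or finTRIM genes (symbol ftr), were followed in injured zebrafish ventricles with and without the transcriptional repressor Grl (also known as Hey2). The members were the rows of the deposited expression table whose gene symbol is ftr followed by a number, and there were 75 of them among 32105 genes. They carry 70 symbols, since ftr04, ftr06, ftr19, ftr26 and ftr97 each stand on 2 identifiers, and 2 members, ftr39p and ftr60p, are described as pseudogenes. The 6 libraries used came from fish of the AB strain aged 5 months, whose ventricles were resected and collected 7 days post-amputation (dpa), with no drug treatment. The 3 wild-type (WT) sibling libraries and the 3 grl5nt-/- libraries each held the pooled ventricles of 6 fish. The grl5nt allele is a small germline CRISPR/Cas9 deletion in the first exon of grl, predicted to truncate the protein, so the mutation is not limited to the myocardium. The remaining 6 of the 12 samples of the series, from fish with cmlc2-driven transgenes given 4-HT, were not analysed here.

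TRIM proteins carry a RING finger, a B-box and a coiled coil, and many of them act as E3 ubiquitin ligases in innate immune signalling. The finTRIM branch is found in fish, often carries a B30.2 domain at its C-terminal end, and was first described from transcripts that virus infection induces in rainbow trout. Its genes lie in tandem arrays of close copies, whereas Ftr82 and Ftr83 belong to a more conserved set, and zebrafish Ftr83 can switch on the interferon pathway. What most single ftr genes do in the heart is not known, so the members are ordered below by level and by position.

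Libraries held 12520034 to 15006574 counts in all. Levels are given below as raw counts or as CPM, the count scaled to library size with the TMM factors of edgeR. A gene was called detected above 3 counts, which is 0.153 to 0.293 CPM depending on the library and covers counting error only. The libraries stood apart in a way that genotype does not account for: no read fell on the mitochondrial gene mt-co1 in WT replicates 1 and 2 and mutant replicate 1. The remaining libraries had 583890 (WT replicate 3), 739939 (mutant replicate 2) and 593632 counts (mutant replicate 3) of it. This split and the genotype cross each other unevenly, and values within each side are given beside the main results. Mutant replicate 1 is the only mutant library without mt-co1 reads, and WT replicate 3 the only WT library with them. Each difference within a side thus rests on 1 library for 1 genotype. The mutated gene, listed as hey2, had 256, 177 and 127 counts in the WT libraries against 228, 218 and 189 in mutant replicates 1, 2 and 3. In CPM it was 13.1, 10.4 and 9.94 in WT and 15.2, 18.8 and 18.4 in the mutants, higher in every mutant library (log2 ratio 0.64, unadjusted p = 0.0191, adjusted p = 0.405, edgeR). A small deletion need not remove the transcript, so this level does not test the labels. The cardiomyocyte marker myl7 was abundant in every library (5986 to 8066 FPKM), and the marker lists of blood, immune, epithelial, epicardial and endothelial cells were detected as well. In such bulk samples fewer cells of a type and less RNA per cell cannot be told apart.

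Most ftr genes were weakly expressed in the injured ventricle. Of the 75 members, 6 had no count in any library (ftr01, ftr14l, ftr54, ftr55, ftr66 and ftr69), 16 never exceeded 3 counts, those 6 included, and 32 exceeded 3 counts in every library. Per transcript length, 13 members reached a mean of at least 1 FPKM (fragments per kilobase of exon, scaled to library size, as the authors computed it), 39 lay between 0.1 and 1 FPKM and 17 were above 0 but under 0.1 FPKM. The median over the 69 members with any count was 0.288 FPKM.

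ftr82 (ENSDARG00000055647, GRCz10 chromosome 5, 30106980 to 30115072) was by far the most abundant member, with 1342, 1357 and 884 counts in the WT libraries, in the order of replicates 1 to 3, against 819, 708 and 701 in the mutant ones. Its FPKM was 36.7 ± 9.20 in WT and 24.8 ± 3.13 in grl5nt-/- ventricles (SD, n = 3 libraries per genotype). It supplied between 30.7% (95% Wilson interval 29.4 to 32.1, WT replicate 1) and 40.3% (38.1 to 42.7, mutant replicate 3) of all counts on ftr genes in a library, so sums over the family are given with and without it. After normalization ftr82 had 68.6, 80.0 and 69.2 CPM in WT and 54.6, 61.2 and 68.4 CPM in the mutants, and the highest mutant library lay just under the lowest WT library. The fitted log2 ratio (mutant over WT) of ftr82 was -0.24 with an SE of 0.20, and it did not pass edgeR's quasi-likelihood test over 15602 genes (adjusted p = 0.611).

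Near ftr82, with 1 other gene of the table between them, lies ftr83 (chromosome 5, 30141574 to 30149340). ftr83, the member known to act on the interferon pathway in zebrafish, was expressed at a far lower level. It had 32, 41 and 55 counts in the WT libraries against 19, 32 and 21 in mutant replicates 1, 2 and 3, or 0.642 ± 0.168 and 0.388 ± 0.0826 FPKM (SD, n = 3 libraries per genotype). The groups overlapped in CPM, and the log2 ratio of -0.45 (adjusted p = 0.678 by edgeR, SE 0.48) shrank to -0.00074 without WT replicate 3. The symbol ftr84, which belongs to the same conserved set, is not among the members.

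The second most abundant member was ftr67 (chromosome 2, 51331557 to 51352857), with 308, 233 and 195 counts in the WT libraries against 147, 116 and 96 in mutant replicates 1, 2 and 3. Its level was 9.01 ± 2.03 FPKM in WT and 4.78 ± 1.05 FPKM in the mutants (SD, n = 3 libraries per genotype). ftr14 followed with 3.72 ± 1.301 FPKM in WT and 2.01 ± 0.394 FPKM in mutant ventricles. The remaining 10 members with a mean of at least 1 FPKM were ftr72, ftr90, ftr93, ftr51, ftr89, ftr59, ftr76, ftr24, ftr56 and ftr97 (ENSDARG00000055436), whose means over the 6 libraries ran from 2.40 FPKM for ftr72 down to 1.05 FPKM for ftr97. ftr82 was above ftr67 in every library, whereas from ftr67 downwards the values of each member overlapped with those of the next one in this order.

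**Figure D1:**
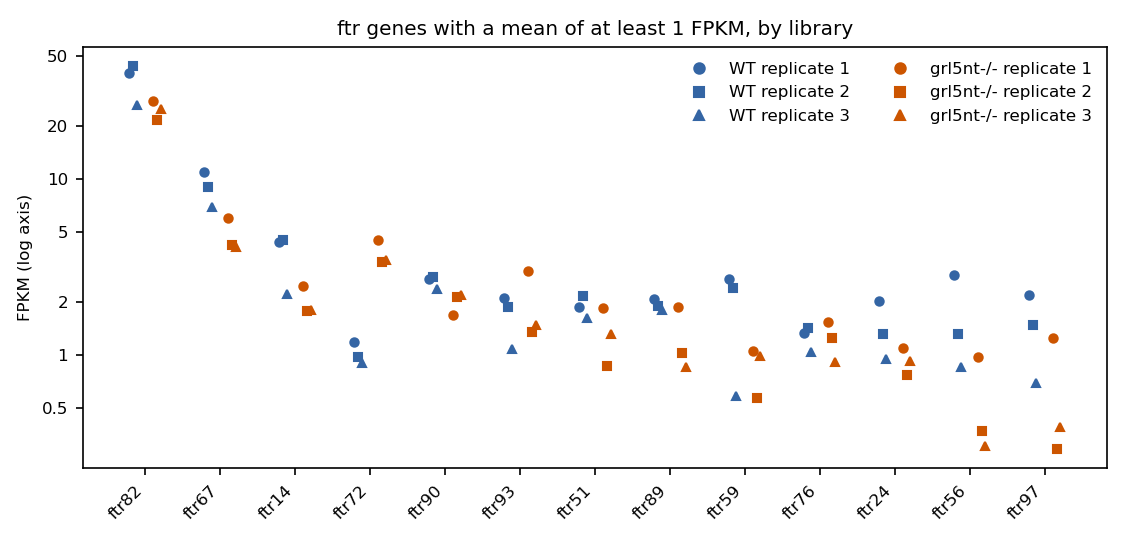
FPKM on a log axis of the 13 ftr genes that averaged 1 FPKM or more, with each library as a point (blue, WT; orange, grl5nt-/-; ftr97 is ENSDARG00000055436). ftr82 stands above all others at 36.7 FPKM in WT and 24.8 FPKM in the mutants, and ftr72 is the member whose mutant points all lie well above its WT points.

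The members lie on 13 chromosomes, and 41 of the 75 are on chromosome 2. When members no more than 100 kb apart were joined, 58 of them fell into 13 groups of at least 2 genes, 7 of which held at least 3, and 17 members stood alone. On chromosome 2, 9 members lie between 42386645 and 42496656 (with ftr02), 9 between 47984269 and 48097601 (with ftr24) and 12 between 58963453 and 59293238 (with ftr36). A further 7 lie on chromosome 15 between 41754331 and 41805169. No other gene of the table lies within the arrays of ftr02, ftr24 or chromosome 15, whereas 6 lie within that of ftr36. The annotated loci of 31 members overlap that of another member, as for ftr36, whose locus spans parts of 8 others, and ftr76 and ftr24, which each overlap 4. Which program counted reads, and whether by strand, is not given in the sources used here, so reads of overlapping or near-identical ftr genes can be split among them in ways the counts do not show.

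To ask whether loss of Grl changed the family, the 36 members that passed edgeR's filter on low counts were tested within the fit of all 15602 genes. ftr72 rose in grl5nt-/- ventricles, and no other member passed an adjusted p below 0.05. Over all genes tested, 0.0769% were called by this rule, 0.0192% higher and 0.0577% lower. The other 35 had log2 ratios from -1.74 (ftr22) to 0.59 (ftr50), with no adjusted p below 0.395, and their standard errors ran from 0.20 for ftr82 to 1.15 for ftr11.

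ftr72 (ENSDARG00000026704) lies on chromosome 15 from 41794939 to 41799111. It had 42, 32 and 32 counts in the WT libraries against 141, 118 and 103 in mutant replicates 1, 2 and 3. In CPM this was 2.15, 1.89 and 2.50 in WT and 9.40, 10.2 and 10.05 in the mutants, so the groups were far apart and each was tight. The fitted rise was 4.53-fold, a log2 ratio of 2.18 with an SE of 0.27 (adjusted p = 0.0399 by edgeR). It was higher in 3 of 3 mutant libraries, for which a two-sided exact permutation test gave p = 0.1, the lower limit for groups of 3. Mutants exceeded WT by 2.17 (log2) on the side of the split without mt-co1 reads and by 1.97 on the side with them. The size of the rise held with each library left out, between 2.104 and 2.294, but its adjusted p was 0.165 without WT replicate 1, 0.290 without WT replicate 2, 0.252 without mutant replicate 2 and 0.259 without mutant replicate 3. On the deposited FPKM, 1.02 ± 0.146 in WT and 3.79 ± 0.627 in mutant ventricles, it did not pass with limma on log2(FPKM + 1) (adjusted p = 0.191).

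None of the other 6 genes of the array on chromosome 15 passed the test. ftr76, whose locus overlaps that of ftr72, had 6.95, 7.90 and 8.38 CPM in WT and 9.20, 10.9 and 7.61 CPM in the mutants, with overlap between the groups and a log2 ratio of 0.26 (adjusted p = 0.654 by edgeR, SE 0.25) that was -0.025 with limma on log2(FPKM + 1). ftr90 had 7.94 ± 1.23 CPM in WT against 7.66 ± 2.36 CPM in mutant ventricles, and ftr89 had 3.13 ± 0.545 and 2.37 ± 0.541 CPM (SD, n = 3 libraries per genotype), both with overlapping groups. ftr73 stood at 0.907 ± 0.372 and 0.808 ± 0.0507 CPM. ftr91, the gene just past ftr72, ranged from 0.0783 to 1.84 CPM among the WT libraries alone, so that its log2 ratio of 0.06 has an SE of 0.83.

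ftr88 lies between ftr90 and ftr73, wholly within the locus of ftr76. It was the one gene of the chromosome 15 array that lay lower in every mutant library. It had 48, 33 and 22 counts in the WT libraries against 16, 8 and 9 in mutant replicates 1, 2 and 3, or 2.04 ± 0.375 and 0.878 ± 0.188 CPM (SD, n = 3 libraries per genotype). Its log2 ratio was -1.20 (unadjusted p = 0.0169 and adjusted p = 0.401 by edgeR, SE 0.40), which did not pass the test over all genes.

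Summed over the 7 genes of the array, the level was 24.5, 23.6 and 26.4 CPM in WT and 29.9, 34.9 and 30.6 CPM in the mutants. Without ftr72 the sum was 22.7 ± 1.09 CPM in WT against 21.9 ± 2.42 CPM in mutant ventricles (SD, n = 3 libraries per genotype), and the groups overlapped. ftr72 made up 8.75%, 7.98% and 9.496% of the array in WT and 31.5%, 29.2% and 32.8% in the mutants. Whether reads moved between copies was not tested, because no sequence of the members was used here. Of the 10 other genes within 200 kb of ftr72, 5 were tested and none passed. si:ch211-276c2.4, which lies just before ftr89, had 249, 140 and 97 counts in the WT libraries against 73, 44 and 12 in the mutants (log2 ratio -1.52, unadjusted p = 0.0129, adjusted p = 0.391, edgeR).

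**Figure D2:**
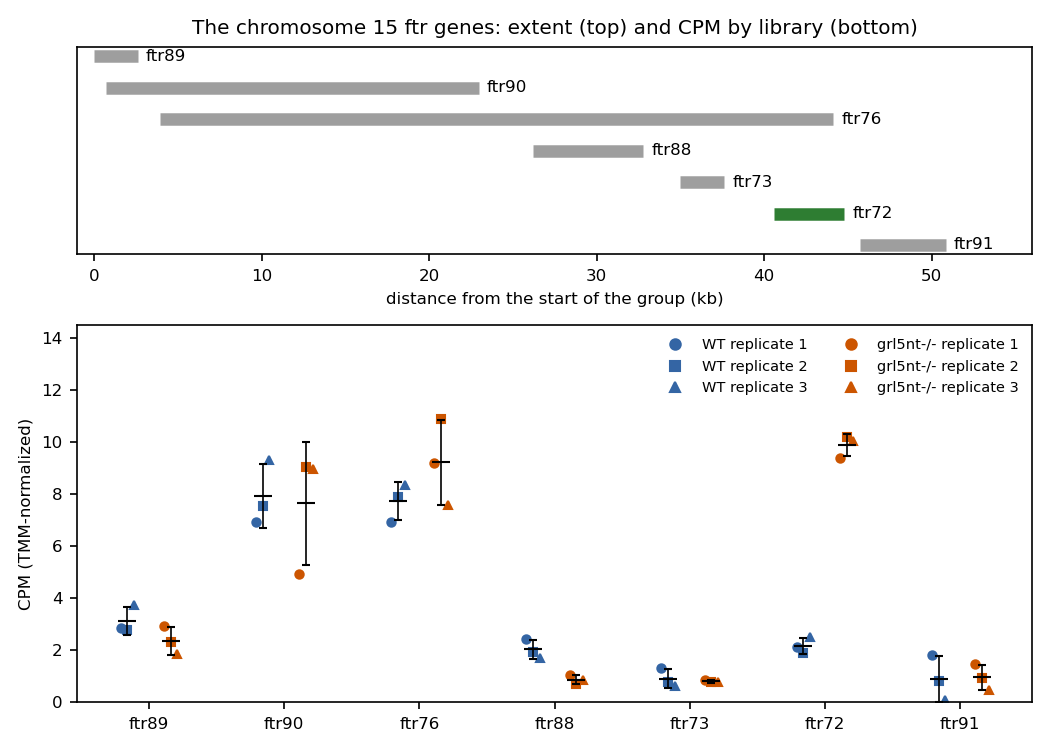
The 7 ftr genes of chromosome 15 by extent, in kb from the start of the array (top), and their CPM in each library with the mean and SD of each genotype in black (bottom). ftr72 (green) is at 1.89 to 2.50 CPM in WT and 9.40 to 10.2 CPM in the mutants, while the points of ftr76, which overlaps it, mix between the genotypes.

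Outside ftr72, most tested members had lower values in the mutants. The fold change was negative for 29 of the 36 and positive for 7, where 53.1% of all genes tested had a negative and 46.9% a positive one, and the median was -0.41 beside -0.05 over all genes. At an unadjusted p below 0.05 there were 7 lower members and 1 higher, beside 6.35% and 4.22% of all genes. The groups did not overlap in 11 members that were lower and 3 that were higher (ftr72, ftr93 and ftr50), beside 8.88% and 6.46% of all genes. These counts describe the members and are no test. The filter bears on them as well: 10 members reached its level in every WT library but not in every mutant one, and none the reverse. On the scale of the deposited FPKM, which takes no account of the TMM factors, 3 of the 36 were higher in the mutants (limma on log2(FPKM + 1)). Of all 15602 genes tested, 3792 were higher on that scale. The median over all genes moved from -0.05 to -0.21 while that of the members was -0.27. On log2(FPKM + 0.1) 4 of the 36 and 3798 of all genes were higher, with medians of -0.57 for the members and -0.33 for all genes.

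The 7 members that were lower at an unadjusted p below 0.05 were ftr22, ftr43, ftr67, ftr88, ftr56, ftr16 and ftr57, with adjusted p between 0.395 and 0.458 (edgeR). They lie on 5 chromosomes. ftr67 had the tightest groups, with 15.7, 13.7 and 15.3 CPM in WT and 9.80, 10.02 and 9.36 CPM in the mutants, each mutant library below each WT library. Its log2 ratio was -0.61 (adjusted p = 0.401 by edgeR, SE 0.21), and it was -0.58 on the side of the split without mt-co1 reads and -0.65 on the other.

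ftr22 (chromosome 2, 48040847 to 48049926) had 34, 20 and 12 counts in the WT libraries against 6, 2 and 6 in mutant replicates 1, 2 and 3, with a log2 ratio of -1.74 (adjusted p = 0.395 by edgeR, SE 0.56). It is the 1 tested member that reached the level of the filter in no mutant library, so it passed through its WT values alone and its place among the lower members is no support. ftr43, ftr88, ftr16 and ftr57 reached that level in every WT library but not in every mutant one. They passed through their WT values as well, so their places among the lower members are no support either. ftr43 (chromosome 3, 4624276 to 4642334) had 59, 24 and 31 counts in the WT libraries against 13, 8 and 11 in the mutants, with a log2 ratio of -1.38 (SE 0.45). Its neighbour ftr50 lay the other way, at 1.72 ± 0.528 CPM in WT against 2.60 ± 0.446 CPM in mutant ventricles (SD, n = 3 libraries per genotype), with a log2 ratio of 0.59 (adjusted p = 0.565, SE 0.39). For ftr43 and ftr22 both sides of the mt-co1 split showed the lower mutant level, by -1.26 and -1.36 for ftr43 and by -1.64 and -1.12 for ftr22 (log2).

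For the other 3, the genotype difference without and with mt-co1 reads was -0.92 and -1.21 for ftr56, -1.12 and -0.86 for ftr16, and -1.23 and -0.63 for ftr57 (log2). With the genotypes pooled, libraries with mt-co1 reads lay below those without them by -1.13 for ftr56, -1.14 for ftr16 and -1.22 for ftr57 (log2). For ftr22 this difference was -0.86 and for ftr88 -0.68. Most libraries with mt-co1 reads were mutant and most without them WT, so these values include part of the genotype difference. ftr56 (chromosome 19, 12479016 to 12485062) had 181, 77 and 54 counts in the WT libraries against 54, 23 and 16 in mutant replicates 1, 2 and 3. WT replicate 1 stood well above WT replicates 2 and 3, with 9.25, 4.54 and 4.23 CPM, and without it the log2 ratio of ftr56 was -0.85 in place of -1.32. ftr16 had 2.40, 1.89 and 1.096 CPM in WT and 0.933, 0.432 and 0.683 CPM in the mutants. ftr57 had 2.25, 1.77 and 0.861 CPM in WT and 0.7999, 0.259 and 0.780 CPM in the mutants. For ftr16 and ftr57 WT replicate 3 was near the highest mutant library. The count of 7 itself depended on single libraries: it was 0 without WT replicate 1, 14 without WT replicate 3, and 2 without mutant replicate 2 or without mutant replicate 3. In these 4 fits, in that order, 36, 41, 41 and 42 members were tested. The calls by adjusted p over all genes moved too, from 12 to 5, 30, 3 and 3 (edgeR). The share of all genes lower at an unadjusted p below 0.05 was not counted in these fits, so the shifts are not particular to the members.

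**Figure D3:**
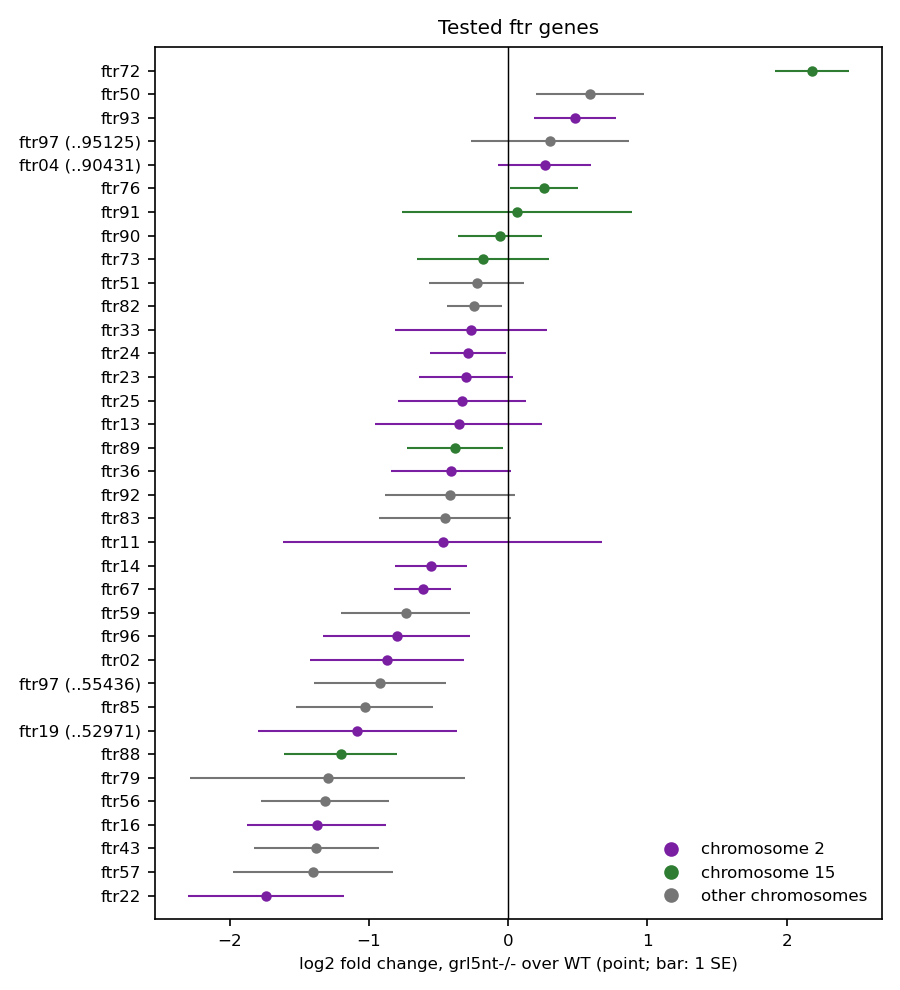
Log2 ratio of grl5nt-/- over WT for the 36 ftr genes tested (points, with bars of 1 SE; purple, chromosome 2; green, chromosome 15; grey, other chromosomes). ftr72 stands alone at 2.18, the others run from -1.74 to 0.59, and 29 of the 36 points lie below 0.

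The 4 arrays of chromosome 2 with 3 or more genes differed in how their genotypes lay: the groups were apart for those of ftr24 and ftr14 and overlapped for those of ftr02 and ftr36. Of single genes tested, 8.88% lay lower and 6.46% higher in the mutants without overlap, and no such share was counted for sums. ftr24 itself had 168, 100 and 79 counts in the WT libraries against 80, 62 and 64 in the mutants. In CPM this was 8.59, 5.90 and 6.18 in WT and 5.33, 5.36 and 6.24 in the mutants, with overlapping groups. Its log2 ratio was -0.29 (adjusted p = 0.646 by edgeR, SE 0.27), and -0.09 without WT replicate 1. The array of ftr24 summed to 23.3, 16.2 and 13.7 CPM in WT and 12.8, 10.8 and 11.997 CPM in the mutants. All 6 of its tested members had a negative fold change, beside 53.1% of all genes tested, and the highest mutant library lay just below the lowest WT library. The 6 are not separate observations, since the loci of ftr96, ftr19 (ENSDARG00000052971), ftr22 and ftr23 overlap that of ftr24. They also include ftr22, which passed the filter through its WT values alone, and ftr25, which reached its level in every WT library but not in every mutant one. The 3 genes ftr13, ftr14 and ftr15 summed to 10.5 ± 1.80 CPM in WT against 7.60 ± 0.674 CPM in mutant ventricles, without overlap. ftr14, their most abundant gene, had a log2 ratio of -0.55 (adjusted p = 0.488 by edgeR, SE 0.26).

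The array of ftr02 varied widely among WT libraries, at 10.6, 5.07 and 2.11 CPM, and its mutant libraries at 2.73, 2.85 and 1.46 CPM overlapped with WT replicate 3. Only ftr02 was tested there, with 69, 34 and 15 counts in the WT libraries against 25, 16 and 6 in the mutants (log2 ratio -0.87, SE 0.55, adjusted p = 0.557, edgeR). ftr06 (ENSDARG00000018506) in this array was the one member of all 75 with more than 3 counts in every WT library, 15, 6 and 5, and at most 3 in every mutant library, 2, 0 and 2. No member had the reverse pattern. In CPM, the limit of 3 counts was higher in mutant replicates 2 and 3 than in any WT library. This favours the first pattern over the reverse. The share of all genes with either pattern was not counted, so these results are no support for a change in the family. The locus of ftr06 overlaps 4 other members, and it was too low to be tested.

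The array of ftr36 stood at 11.6 ± 2.57 CPM in WT against 10.4 ± 1.22 CPM in mutant ventricles (SD, n = 3 libraries per genotype), with overlap, and WT replicate 3 at 8.69 CPM lay below every mutant library. ftr36 itself had 104, 109 and 28 counts in the WT libraries against 50, 33 and 45 in the mutants, and its difference between the genotypes was -0.80 in the libraries without mt-co1 reads and 0.70 in those with them (log2), so it changed sign across the split. On chromosome 3, the group of ftr41 was near the limit of detection, with 34, 16 and 3 counts of ftr41 in WT and 5, 1 and 0 in the mutants. On chromosome 20, ftr97 (ENSDARG00000055436) had 177, 110 and 56 counts in the WT libraries against 88, 23 and 26 in the mutants, with a log2 ratio of -0.92 (adjusted p = 0.515 by edgeR, SE 0.47) and overlapping groups in CPM.

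Not all abundant members lay lower. ftr93 (chromosome 2, 823878 to 834786), which stands apart from the arrays of that chromosome, had 4.53 ± 0.546 CPM in WT against 6.30 ± 1.54 CPM in mutant ventricles (SD, n = 3 libraries per genotype), every mutant library above every WT library, with a log2 ratio of 0.48 (adjusted p = 0.555 by edgeR, SE 0.30). ftr51 and ftr59 had lower means in the mutants, both with overlapping groups. ftr51 on chromosome 4 had 2.79 ± 0.399 and 2.37 ± 0.483 CPM (log2 ratio -0.23, SE 0.34). ftr59 on chromosome 23 had 4.31 ± 2.11 and 2.61 ± 0.668 CPM (log2 ratio -0.73, SE 0.46). The sign of ftr59 differed across the split, at -1.09 in the libraries without mt-co1 reads and 0.48 in those with them (log2).

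**Figure D4:**
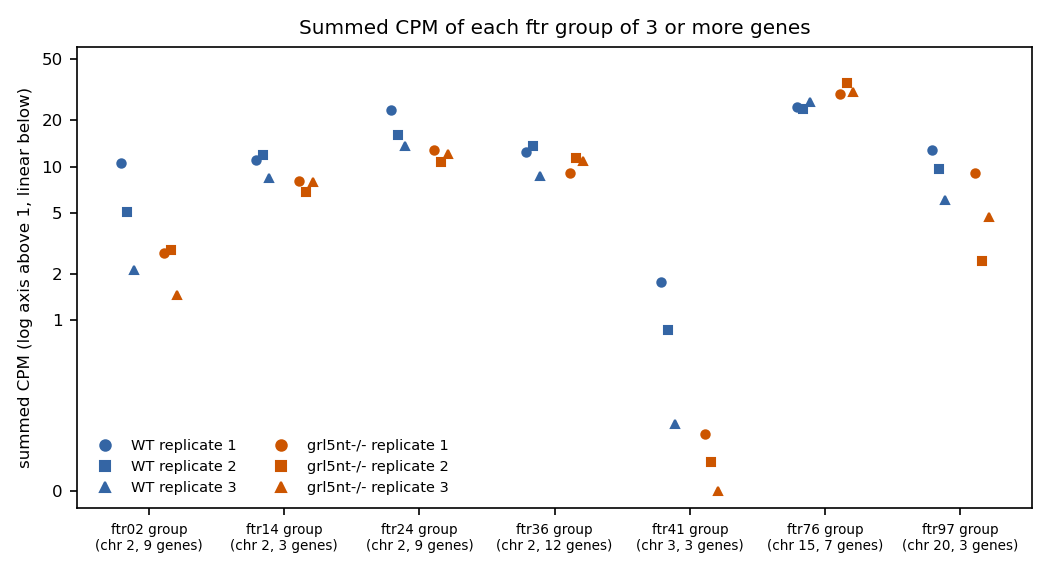
Summed CPM of each ftr array of 3 or more genes, named by its member of highest mean count, with each library as a point (axis logarithmic above 1 and linear below). The mutant points lie below the WT points without overlap in the ftr14, ftr24 and ftr41 groups and above them in the ftr76 group, the array on chromosome 15 that holds ftr72. The gap between WT replicate 3 and mutant replicate 1 is slight for the ftr14 group (8.45 and 8.07 CPM) and the ftr41 group (0.391 and 0.333 CPM). Of single genes tested, 8.88% lay lower and 6.46% higher without overlap, and no share was counted for sums.

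Over the whole family, ftr genes held 223, 206 and 178 CPM in WT and 164, 162 and 170 CPM in mutant replicates 1, 2 and 3. The ratio of the means was 0.816, or -0.29 on the log2 scale, and the groups did not overlap. Within the sides of the mt-co1 split this difference was -0.39 without and -0.10 with mt-co1 reads. Without ftr82 the sum was 130 ± 23.0 CPM in WT against 104 ± 4.81 CPM in mutant ventricles, the groups overlapped, and the differences within the sides were -0.36 and -0.11 (log2). Without both ftr82 and ftr72, a sum that leaves out the one member chosen for its rise, the family held 128 ± 23.1 CPM in WT against 94.1 ± 5.23 CPM in mutant ventricles (SD, n = 3 libraries per genotype). The log2 difference of this sum was -0.47 in the libraries without mt-co1 reads and -0.23 in those with them. With CPM taken from the total count alone, without the TMM factors, the family held 232 ± 72.05 in WT and 151 ± 31.3 in the mutants and the groups overlapped. The 33 members with a count that were too low for the test summed to 16.8, 9.91 and 5.71 CPM in WT and 5.60, 6.13 and 5.07 CPM in the mutants.

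Macrophage and lymphocyte markers and interferon response genes were high in the same WT libraries as the summed ftr genes, whereas neutrophil markers were not. Not every ftr gene followed the sum: WT replicate 1 was the highest WT library for 22 of the 36 tested members, and ftr82 was highest in WT replicate 2. WT replicate 1 was the highest library for the ftr genes without ftr72 and ftr82 (152 CPM), for the interferon response list (1044 CPM), for the macrophage list (1382 CPM) and for the lymphocyte list (44.4 CPM), and WT replicate 2 was second in each. The same 2 libraries came first and second for the other TRIM genes (665 and 587 CPM) and the bloodthirsty-related genes (27.7 and 23.5 CPM) treated below. Both are without mt-co1 reads. For the macrophage list the WT libraries ran from 816 to 1382 CPM and the mutants from 830 to 894 CPM. For the lymphocyte list they ran from 14.95 to 44.4 CPM in WT and from 11.1 to 14.8 CPM in the mutants. The neutrophil list summed to 326, 344 and 335 CPM in WT and 258, 410.2 and 363 CPM in mutant replicates 1, 2 and 3. Of the 17 macrophage genes tested 16 had a negative fold change, of the 9 lymphocyte genes 7, and of the 10 neutrophil genes 5, beside 53.1% of all genes. None had an adjusted p below 0.05 by edgeR, while 6, 4 and 2 were lower at an unadjusted p below 0.05, beside 6.35% of all genes. DESeq2 called 0, 2 and 0, beside 242 of all 15602 genes. Fold changes were positive for 7 of 8 epithelial, 5 of 7 erythrocyte, 8 of 13 endothelial, 5 of 10 epicardial, 6 of 13 cardiomyocyte, 4 of 6 liver and 4 of 4 exocrine pancreas genes tested. Over all genes the share was 46.9%. No gene of the macrophage, lymphocyte or neutrophil list was at 0 in every library. The part of the immune cells in the ftr values was not tested.

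Interferon response genes (43 tested, among them irf8, gbp2 and gbp4) had a median log2 ratio of -0.58, with 36 negative and 7 positive. Over all genes tested the median was -0.05 and 53.1% were negative. By edgeR and by DESeq2 0 of the interferon response genes were called, beside 0.0769% and 242 of all 15602 genes. At an unadjusted p below 0.05, 5 of the list were lower, beside 6.35% of all genes. Those with the smallest p were gbp4, a guanylate-binding protein gene (15, 11 and 15 counts in the WT libraries against 3, 2 and 4 in the mutants), the macrophage regulator irf8 (1111, 539 and 267 against 274, 225 and 206) and gbp2 (812, 332 and 132 against 194, 90 and 97). Their log2 ratios were -1.75, -0.93 and -1.24, with adjusted p from 0.395 to 0.432 (edgeR), and the groups of gbp2 overlapped in CPM. gbp4 reached the level of the filter in no mutant library. It passed through its WT values alone, so its place among the lower genes is no support. How many other genes of the list passed in this way was not counted. Without and with mt-co1 reads the differences were -1.43 and -1.74 for gbp4, -1.27 and -0.08 for irf8, and -1.23 and -0.26 for gbp2 (log2). With 1 library left out the ratio ran from -2.13 to -1.48 for gbp4, -1.19 to -0.44 for irf8 and -1.59 to -0.56 for gbp2. Between the sides of the mt-co1 split, with the genotypes pooled, the median difference of this list was -1.08 (log2). It was -0.36 for the tested ftr members and -0.04 for all genes. These differences include part of the genotype difference, since most libraries with mt-co1 reads were mutant. When the split was added to the fit, the genotype median became -0.26 for the interferon response list and -0.36 for the ftr members.

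**Figure D5:**
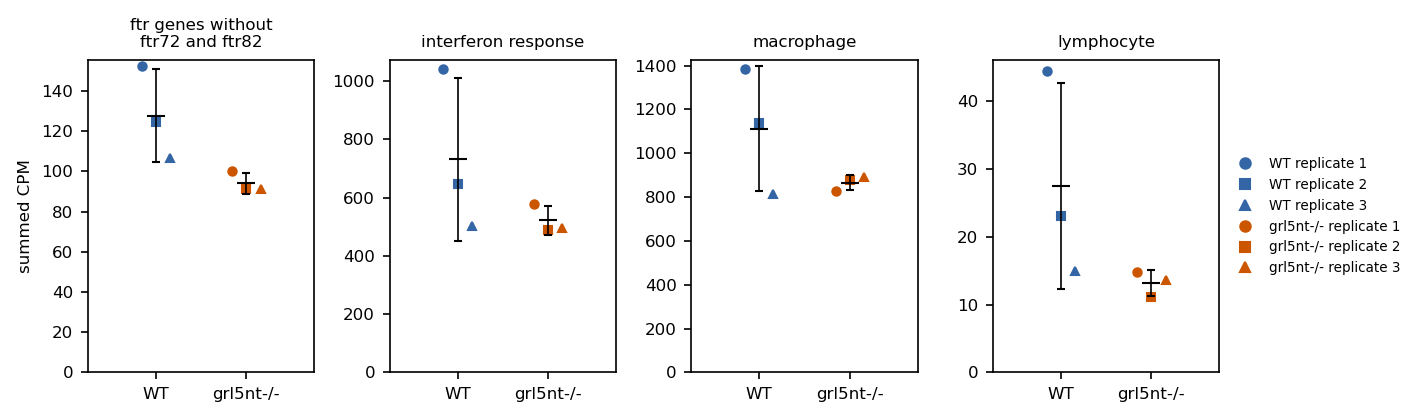
Summed CPM by library of the ftr genes without ftr72 and ftr82, and of the interferon response, macrophage and lymphocyte lists, with the mean and SD of each genotype in black (each panel has its own axis from 0). WT replicate 1 is the highest point in all 4 panels, at 152, 1044, 1382 and 44.4 CPM.

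Related gene families were counted in the same way. Over all 15602 genes tested, 53.1% had a negative fold change, and 6.35% were lower and 4.22% higher at an unadjusted p below 0.05. By adjusted p, edgeR called 0.0769% of all genes and DESeq2 242 genes. Of 62 other TRIM genes, 36 were tested, 25 with a negative and 11 with a positive fold change, and the median was -0.29. edgeR called 0 and DESeq2 1 of them, and 5 were lower and 2 higher at an unadjusted p below 0.05. The smallest p were those of trim66 (46, 35 and 16 counts in WT, 5, 5 and 1 in the mutants, log2 ratio -2.65, SE 0.57), trim3b (-0.89, SE 0.25) and the muscle RING-finger gene trim55a (0.82, SE 0.24), with adjusted p of 0.194, 0.340 and 0.355 (edgeR). Of 20 bloodthirsty-related genes (btr), another TRIM branch expanded in fish, 9 were tested, 7 of them negative, with a median of -0.90, 1 lower at an unadjusted p below 0.05, and 0 called by edgeR against 1 by DESeq2. btr24 had 27, 21 and 25 counts in the WT libraries against 3, 4 and 2 in mutant replicates 1, 2 and 3, a log2 ratio of -2.58 (adjusted p = 0.164 by edgeR, SE 0.51), while btr26 and btr29 had -0.90 and -1.61 with adjusted p of 0.507 and 0.546. trim66 and btr24 reached the level of the filter in no mutant library. Both passed through their WT values alone, so their places among the lower genes are no support. How many other genes of these families passed in this way was not counted. Whether the ftr genes differ from these families was not tested, and the median of the ftr members lay between those of the other TRIM and the btr genes.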

How the data were processed

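RNA was sequenced from 6 pooled-ventricle libraries, 3 per genotype. Per the labels and the study's methods, the authors filtered reads with Seqtk, aligned them with HISAT2 2.0.4 to GRCz10 and computed FPKM with StringTie 1.3.0. The deposited counts per gene were used as they stand, and the program that made them and its use of strand are not given in the sources used here. Counts were fitted with edgeR 4.0.16 (TMM, filterByExpr, quasi-likelihood test, R 4.3.3) on the 6 libraries with genotype as the one term, and p-values were adjusted over all 15602 genes tested (Benjamini-Hochberg, threshold 0.05). The edgeR fit was tested on simulated data, and the other steps were not. The simulation gave every gene the same dispersion and every changed gene the same size of change, and it held no mt-co1 split. It therefore does not show how the fit performs on libraries like these. p-values measure the spread between these pools.

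Levels are TMM-scaled CPM (a total of 12520034 to 15006574 counts per library) or the authors' deposited FPKM, which is per length. Log2 differences within each side of the mt-co1 split used CPM + 0.1. Members were joined into arrays when no more than 100 kb apart. Named members were those with an unadjusted p below 0.05, the 10 of highest mean FPKM, the member of highest mean count in each array of 3 or more, ftr82 to ftr84, and members detected in every library of 1 genotype and none of the other. Of the lists, the 3 genes with the smallest p were named. ftr50, ftr73, ftr91, ftr11 and the genes beside ftr72 fall outside this rule and were chosen after their values were seen. Alternatives were DESeq2 1.42.0, its size factors, no filter, limma 3.58.1 on log2(FPKM + 1) and log2(FPKM + 0.1), a replicate block, a term for the split and leaving out each library. Members and gene lists were chosen with earlier results of these data known. No sequence was used here.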

Additional observations from a re-analysis of the deposited data

How the results depend on the processing

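The log2 fold change of ftr72 was 2.104 to 2.294 with 1 library left out, and it was past the threshold in DESeq2, with DESeq2's size factors, without the filter, with the replicate block and with the split term. With limma it was 1.24 on log2(FPKM + 1) and 1.79 on log2(FPKM + 0.1) and did not pass, so that the members called numbered 0 in both, and 0 to 1 with a library left out. Over all genes the 12 calls became 242 with DESeq2, 39 without the filter, 5 with limma on log2(FPKM + 1), 132 with the replicate block, 241 with the split term, and 3 to 30 with a library left out. The members lower at an unadjusted p below 0.05 numbered 0 to 14, the median fold change of all tested members was -0.67 to -0.31 and the family's log2 difference was -0.38 to -0.22 with a library left out, beside -0.63 for summed FPKM. The share of all genes lower at an unadjusted p below 0.05 was not counted with a library left out. At more than 10 counts 19 members were detected in every library, in place of 32.

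ftr76 turned to -0.025 and -0.049 with limma on log2(FPKM + 1) and log2(FPKM + 0.1), and ftr90 (-0.19 to 0.20 with a library left out) to 0.08 when WT replicate 3 was dropped and to 0.20 when mutant replicate 1 was. The cause was not tested. The main fit did not pair libraries by replicate number. The correlation of deviations was 0.62, -0.37 and 0.43 for same-numbered libraries. WT replicate 1 and mutant replicates 1 and 3 correlated best with their own number, and the remaining libraries did not. All positive correlations joined libraries on the same side of the mt-co1 split, so these values cannot show whether the numbers pair the libraries. With the replicate block 1 member was called, ftr72 (adjusted p = 0.0098, edgeR), and 9 were lower at an unadjusted p below 0.05. Over all genes 132 were called with this block, and the share lower at an unadjusted p below 0.05 was not counted. Depth limits the members with few counts: 39 of the 75 did not pass the filter and have no test here.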
